A study of Mus musculus with 12 samples.

Results

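The clustered protocadherins are neuronal cadherin-like surface proteins encoded in tandem on mouse chromosome 18, in clusters named alpha, beta and gamma. They were taken as every row whose gene symbol is Pcdha, Pcdhb, Pcdhga, Pcdhgb, Pcdhgc or Pcdhac followed by a number, with 1 row kept per Ensembl identifier. This gave 24 of the 40690 gene identifiers in the gene table (1 alpha, 22 beta and 1 gamma row). In the transcript table it gave 39 of 84548 transcripts (8 alpha, 22 beta and 9 gamma), which carry 38 symbols because Pcdha11 appears under 2 gene identifiers. The GENCODE M21 annotation of mouse build GRCm38 holds 58 genes with such symbols (14 alpha, 22 beta and 22 gamma), and the isoforms that are not in these tables were not analysed here. In that annotation the alpha genes span chr18:36930184-37187661, the beta genes chr18:37264938-37524479 and the gamma genes chr18:37661793-37841873, all on the plus strand.

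RNA was sequenced with oligo-dT libraries from 12 whole brains of C57BL/6J embryos at embryonic day 14.5, 1 embryo per library. LC1 is a conserved non-coding element upstream of Pou3f2, which encodes a neuronal POU-family transcription factor. The groups were LC1 knockout (embryos 7, 22 and 71, all female), in which the element is deleted, and LC1 wild type (6, 26 and 73, all female). The other groups were RKI homozygous (A1, A10 and A18), in which a variant of the human sequence was knocked into the element, and RKI wild types (embryos A2, A9 and A16), with 1 female (A10 or A9) and 2 males in each. Per the labels, mutants and wild types were matched by litter and sex, but the litters are not named. The p-values therefore rest on the spread between embryos, and the labels do not say how many founder lines or clones stand behind the alleles. Gene counts summed to between 18192984 and 26566769 per library. Although the labels give whole brain, markers of the hindbrain were nearly absent. Of 10 Hox genes that mark it, 7 had no count in any library and the sum of all 10 stayed at 0.101 CPM (counts scaled to the library's total) or less in every library, while 12 of 12 markers of postmitotic neurons passed the filter on low counts.

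As background, each alpha and gamma isoform joins its own variable exon, which encodes the extracellular and transmembrane parts, to constant exons shared by the whole cluster, whereas beta genes have no constant exons. All listed beta transcripts have 1 exon except Pcdhb22, which has 2. In most neurons a few of the alternate isoforms are chosen at random through their promoters, with CTCF, cohesin and DNA methylation involved, and the C-type isoforms Pcdhac1, Pcdhac2, Pcdhgc3, Pcdhgc4 and Pcdhgc5 are regulated apart from these. The proteins bind their own kind across cell membranes and give a neuron an identity with which its branches tell self from non-self. In mice they also act in neuronal survival, dendrite branching and axon tiling.

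The gene rows of the alpha and gamma clusters did not stand for single genes. The gene table held 1 alpha row, listed as Pcdha11 (ENSMUSG00000007440), whose Entrez identifier belongs to Pcdha10 in RefSeq, and 1 gamma row, listed as Pcdhgc4 (ENSMUSG00000023036). The counts and the RPKM (read counts scaled to length and to the library's total) of the alpha row together imply a length of 24701 bp, against 5359 bp of exons annotated to its own gene and 23291 bp covered by the 8 listed alpha transcripts. For the gamma row the implied length was 26127 bp, against 5596 bp for its own gene and 26197 bp for the 9 listed gamma transcripts. These rows are therefore called the alpha row and the gamma row, and single alpha and gamma isoforms were read from the transcript estimates. The summed estimates of the listed transcripts came to a median of 0.731 of the alpha row's count and 0.755 of the gamma row's count. Of each listed transcript, 2860 bp of the alpha and 2116 to 2119 bp of the gamma isoforms are shared by the cluster. By exon position, 45.5 to 51.4% of an alpha and 54.8 to 58.3% of a gamma transcript is thus its own. By sequence, 48.2 to 61.4% of the windows of 50 bases in an alpha transcript also occur in another member. For a gamma transcript it is 41.2 to 46.3%. Between beta transcripts a median of 3.65% of all windows of 50 bases also occur in another member, with the highest share in Pcdhb12 (12%), so counts could be split or lost between paralogs to that extent.

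In the transcript table the listed gamma isoforms summed to 78.7 to 89.7 RPKM per library, the beta transcripts to 31.0 to 41.1 RPKM and the alpha isoforms to 14.1 to 19.2 RPKM. The gamma cluster was led by one C-type isoform. Pcdhgc3, a C-type isoform that in mouse cortex promotes dendrite branching, had 42.3, 39.9 and 38.0 RPKM in LC1 knockout brains, 36.4, 39.5 and 37.3 RPKM in LC1 wild types, 39.5, 36.4 and 41.9 RPKM in RKI homozygous brains and 39.7, 39.3 and 39.8 RPKM in RKI wild types. Its 12 values lay within 1.16-fold of each other and above every value of any other listed clustered protocadherin. Pcdhgb6, an alternate isoform of B type, came next with a median of 11.1 RPKM (8.99 to 11.9 over the 12 libraries), and Pcdhga11, of A type, followed with 8.54 RPKM (6.35 to 9.43). Pcdhgc4, the C-type isoform that mice need for the survival of many neurons, had a median of 7.01 RPKM (5.76 to 7.80). Pcdhga9 (3.06 RPKM), Pcdhga8 (2.62 RPKM) and the C-type isoform Pcdhgc5 (1.42 RPKM, 1.30 to 1.63) were the lowest listed gamma isoforms. From the highest to the lowest gamma isoform the medians differed 27.8-fold. In that order, 5 of 8 pairs of neighbours had ranges that overlapped, and Pcdhgc3, Pcdhga3 and Pcdhga8 were each apart from the isoform next below.

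Among the alpha isoforms the C-type Pcdhac2, which in mice is needed for the even spread of serotonergic axons, was the highest. It had 5.36, 5.07 and 4.70 RPKM in LC1 knockout brains, 4.56, 5.23 and 5.44 RPKM in LC1 wild types, 5.82, 5.05 and 5.38 RPKM in RKI homozygous brains and 5.14, 5.67 and 4.70 RPKM in RKI wild types. All 12 values were above those of the other listed alpha isoforms. The alternate isoforms Pcdha12 (median 3.14 RPKM, 2.03 to 3.67) and Pcdha2 (3.07 RPKM, 2.36 to 3.59) could not be ordered, since Pcdha12 was the higher in 5 of 12 libraries. At the low end stood Pcdha11 of ENSMUSG00000102206 (0.950 RPKM), the other C-type isoform Pcdhac1 (0.848 RPKM, 0.738 to 0.996) and Pcdha1 (0.737 RPKM, 0.499 to 1.14). The transcript of ENSMUSG00000007440, also listed as Pcdha11, had a median of 0.969 RPKM. The levels spread 7.04-fold from Pcdhac2 to Pcdha1, and 5 of 7 pairs of neighbours overlapped.

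The 22 beta genes, read from their own gene rows, ran down in small steps. Pcdhb17 was the highest, with 4.51, 5.97 and 4.57 RPKM in LC1 knockout brains, 5.56, 6.10 and 5.18 RPKM in LC1 wild types, 5.68, 5.36 and 5.27 RPKM in RKI homozygous brains and 4.89, 5.80 and 4.69 RPKM in RKI wild types. Pcdhb20 (median 3.98 RPKM) and Pcdhb7 (3.76 RPKM) came next, and Pcdhb22 (3.56 RPKM) followed. Pcdhb14 (1.1 RPKM) and Pcdhb13 (0.582 RPKM) were the lowest genes with counts in every library, with 32 to 76 counts for Pcdhb13. Pcdhb1, the first gene of the cluster, had between 0 and 3 counts per library, with 3 in A2, 1 in each of embryos 6, 73 and A1 and none in the other 8, and did not pass the filter. From Pcdhb17 to Pcdhb13 the medians differed 9.12-fold, and 18 of 21 pairs of neighbours overlapped. Of the 4 highest beta genes, Pcdhb17, Pcdhb20 and Pcdhb22 lie in positions 17, 20 and 22 of the 22 along the cluster, and Pcdhb7 in position 7.

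The order of the beta genes depended in part on the table. The transcript estimate was a median of 0.506 of the gene count for Pcdhb19 and 0.750 for Pcdhb16, against 1.55 for Pcdhb5. Over 4531 tested genes with a single listed transcript the median ratio was 1.01, with 5th and 95th percentiles of 0.504 and 3.28. Pcdhb16 and Pcdhb5 lay between these percentiles, and Pcdhb19 lay at the lower one. Pcdhb19 ranked 5 of 22 from its gene row (2.67 RPKM) but 19 from its transcript (0.969 RPKM), and Pcdhb16 ranked 6 and 16. Pcdhb17 ranked 1 in both. The order also rests on the lengths behind the RPKM, which for some gene rows were shorter than the annotated exons. The implied length was 3273 bp against 4660 bp for Pcdhb17, 3071 bp against 6609 bp for Pcdhb22 and 3442 bp against 8695 bp for Pcdhb14. The order of the beta genes under the annotated lengths was not tested.

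**Figure D1:**
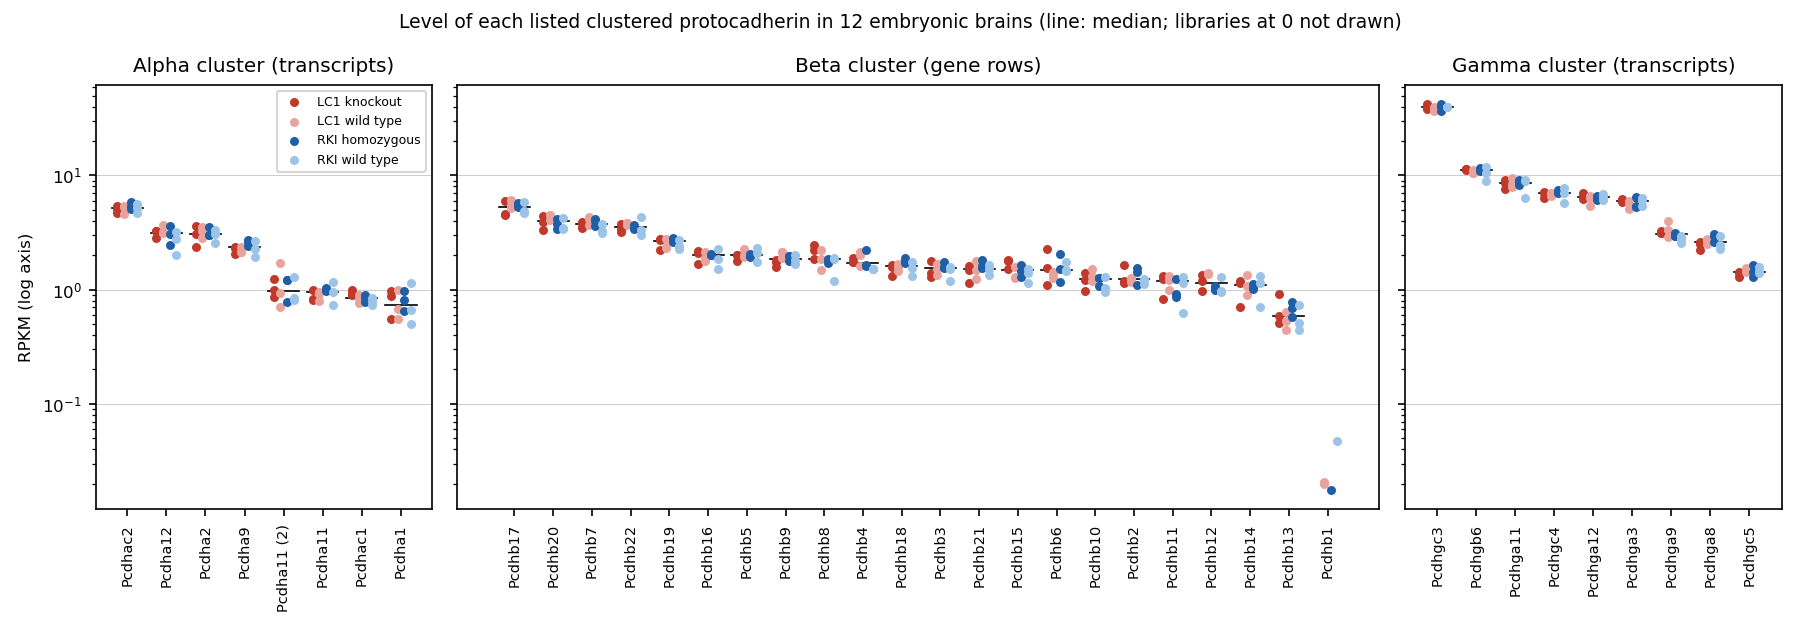
RPKM (log axis) of each listed clustered protocadherin in every library, with alpha and gamma isoforms from the transcript table and beta genes from the gene table; points are embryos coloured by group, lines are medians over 12 libraries, and Pcdha11 (2) is the transcript of ENSMUSG00000007440. Pcdhgc3 stands alone near 39.5 RPKM and most beta genes lie between 1 and 4 RPKM.

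Isoform choice within a cluster was described by the share of each isoform in the summed RPKM of the listed isoforms. A further measure was the effective number of isoforms, the exponential of the Shannon entropy of these shares. It equals the number of isoforms if all are equal. Only 9 of 22 gamma and 8 of 14 alpha genes are listed, and both measures depend on which are listed. Reads from constant exons of unlisted isoforms could be assigned to listed ones, which was not tested. As averages over whole brains, these measures do not show the choice made in single neurons. Pcdhgc3 alone made up 48.1, 45.8 and 45.5% of the gamma total in LC1 knockout brains, 46.2, 44.9 and 45.2% in LC1 wild types, 46.5, 44.1 and 46.7% in RKI homozygous brains and 46.0, 44.8 and 50.6% in RKI wild types. The highest share was that of embryo A16, and the groups overlapped in both experiments. The 3 gamma C-type isoforms together held 56.0 ± 0.648% in LC1 knockout and 55.5 ± 0.952% in LC1 wild-type brains (SD, n = 3 each). They held 55.9 ± 1.04% in RKI homozygous and 56.9 ± 2.40% in RKI wild-type brains (SD, n = 3 each). The A-type isoforms held 28.9 to 32.6% of the gamma total, and Pcdhgb6, the one B-type isoform listed, 11.4 to 13.5%. The effective number of gamma isoforms was 5.24 to 5.88 of 9.

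The alpha total had an effective number of 6.23 to 6.62 of 8 isoforms. Its 2 C-type isoforms held 39.4, 33.3 and 32.8% in LC1 knockout brains, 33.9, 32.2 and 35.9% in LC1 wild types, 34.9, 32.3 and 37.7% in RKI homozygous brains and 36.1, 33.5 and 39.3% in RKI wild types. Embryos 7 and A16 had the highest shares, 1 of them a mutant and the other a wild type. The beta cluster, read from its gene rows, had an effective number of 17.9 to 18.9 of 22 genes. From the transcript table, as used for alpha and gamma, it was 16.9 to 18.1. Without the C-type isoforms, the 6 listed alternate gamma isoforms had an effective number of 5.24 to 5.44 and the 6 alternate alpha isoforms one of 5.02 to 5.42.

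Of 17 alpha and gamma isoforms, the shares of 3 did not overlap between LC1 knockout and LC1 wild type, 1 higher and 2 lower in the knockout. Over 40337 transcripts of genes with several, the shares of 4.1% lay wholly higher and of 4.21% wholly lower in the knockout. The share of Pcdhac1 in the alpha total was 6.17, 5.04 and 5.49% in LC1 knockout brains, against 4.84, 4.72 and 4.71% in LC1 wild types. The share of Pcdhgc5 in the gamma total was 1.47, 1.61 and 1.70% in LC1 knockout brains, against 1.90, 1.77 and 1.72% in LC1 wild types, and that of Pcdhga8 was 2.83, 3 and 2.66%, against 3.16, 3.05 and 3.36%. Between RKI homozygous and RKI wild type the shares of 2 isoforms, Pcdha9 and Pcdhga9, did not overlap, both higher in the homozygous brains, beside 3.97% of all such transcripts wholly higher and 4.09% wholly lower. These 5 isoforms were singled out after their values were seen.

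The test of isoform usage, which sets each transcript's fold change against that of its cluster (edgeR's diffSpliceDGE with Benjamini-Hochberg adjustment over 40579 transcripts), called none of the 17 isoforms in any comparison, with adjusted p = 1 throughout. Over all transcripts tested it called 0.173% in LC1 and 0.111% in RKI. In edgeR's test the smallest p in LC1 belonged to Pcdhga8 (usage log2 change -0.17), Pcdhga9 (-0.15) and Pcdhga11 (-0.08), and none of the 17 had an unadjusted p under 0.05 in either experiment. In edgeR's test of RKI it belonged to Pcdhgb6 (0.08), Pcdhga8 (0.14) and Pcdhga3 (-0.08).

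One embryo held the lowest value of most clustered protocadherin gene rows. In A16, an RKI wild type, all 23 gene rows tested lay below their own mean over the 12 libraries, against 49.4% of all 16002 genes tested. In 14 of the 23 the lowest value was that of A16, against 16.5% of all genes. The median of the 23 rows was 0.24 lower than their mean on the log2 scale in A16 and 0.19 lower in embryo 7, an LC1 knockout. In embryo 7, 17 of 23 lay below their mean, against 50.1% of all genes. The gamma row was not lowest in A16 (681 CPM, against 671 CPM in embryo 71). The listed alternate alpha isoforms summed to 8.56 RPKM in A16, against 9.78 to 12.9 RPKM in the other 11 embryos, and the alternate gamma isoforms to 31.7 RPKM, against 34.2 to 39.8 RPKM. Pcdhgc3 was not low in A16 (39.8 RPKM, against 36.4 to 42.3 RPKM in the others), and the gamma C-type share was highest there, at 59.7% against 54.7 to 56.8%.

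Markers of other cell types moved with this embryo. The 12 markers of postmitotic neurons summed to 8159 CPM in A16, against 8587 to 9539 CPM in the other 11, the 10 proliferation genes to 1465 CPM, against 946 to 1164 CPM, and the 9 radial glia markers to 2703 CPM, against 2174 to 2522 CPM. The 9 genes of erythroid blood summed to 1986 CPM in A16, within the 1025 to 2212 CPM of the others, of which embryo 7 was the highest. The part of these markers in the low protocadherin levels was not tested, and in whole brains fewer cells of a type and less RNA per cell cannot be told apart.

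**Figure D2:**
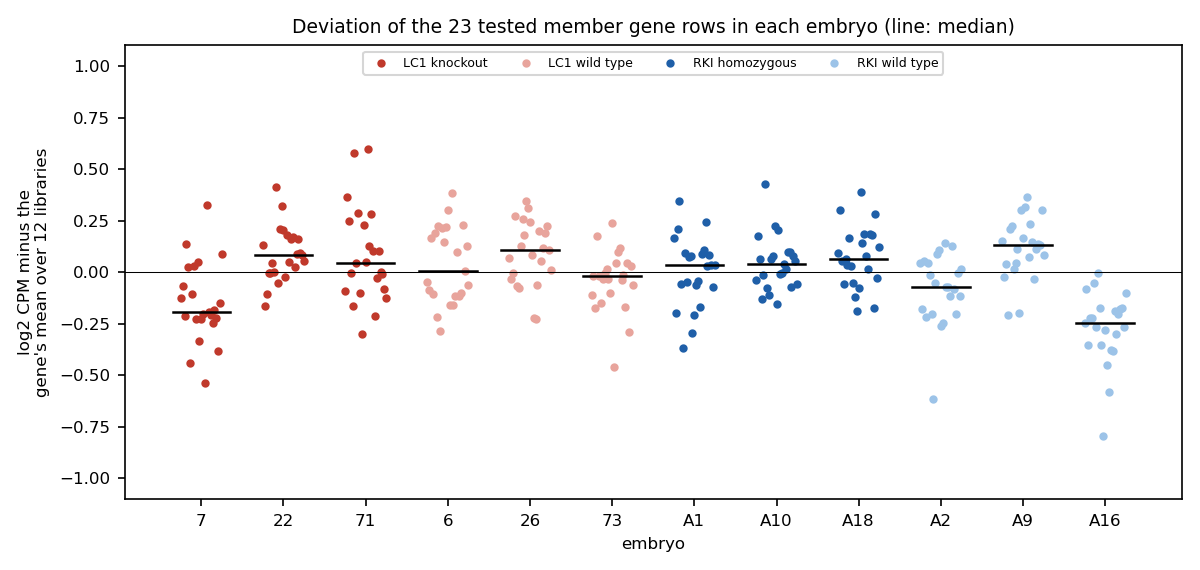
Deviation of the 23 tested member gene rows from their own mean over 12 libraries (log2 CPM), for each embryo from LC1 knockout on the left to RKI wild type on the right; points are gene rows and lines their median. All 23 points of embryo A16 lie below 0, and 17 of 23 in embryo 7.

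Deletion of the LC1 element was not accompanied by a called change in any clustered protocadherin. The alpha row had 142, 170 and 146 CPM in LC1 knockout brains, against 150, 163 and 144 CPM in LC1 wild types, a log2 fold change of 0.01 (95% interval -0.20 to 0.21). The beta rows summed to 139, 166 and 161 CPM in LC1 knockout brains, against 162, 168 and 153 CPM in LC1 wild types. The gamma row had 775, 759 and 671 CPM in LC1 knockout brains, against 699, 735 and 700 CPM in LC1 wild types, a log2 fold change of 0.05 (-0.10 to 0.20). The groups overlapped in all 3 clusters, and the difference of the beta sums (-0.06 on the log2 scale) was smaller than the pooled SD within groups (0.12).

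No gene row of the 23 passed edgeR's quasi-likelihood test with Benjamini-Hochberg adjustment, and none had an unadjusted p under 0.05. The same test called 0% of the 16002 genes tested, with 334 at an unadjusted p under 0.05, and DESeq2 and limma-voom called no gene either. Of the 23, 9 were higher and 14 lower in the knockout, with a median log2 fold change of -0.05, against 0.00 over all genes tested. This direction rested on single embryos, since without embryo 7 it was 14 of 23 higher with a median of 0.06, and without the wild type 26 it was 12 of 23 with a median of 0.00. The standard error was 0.14 at the median member. Pcdhb9 had the smallest p. It had 4.86, 5.48 and 5.30 CPM in LC1 knockout brains, against 6.59, 6.44 and 5.74 CPM in LC1 wild types, a log2 fold change of -0.26 ± 0.13 (SE; edgeR adjusted p = 1, unadjusted 0.0533).

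Pcdhb15 had 5.12, 4.24 and 4.98 CPM in LC1 knockout brains, against 3.67, 3.49 and 4.38 CPM in LC1 wild types (log2 fold change 0.30 ± 0.16). Pcdhb12 had 2.99, 4.04 and 3.62 CPM in LC1 knockout brains, against 4.31, 4.15 and 4.13 CPM in LC1 wild types (log2 fold change -0.23 ± 0.16). The groups did not overlap for Pcdhb9 and Pcdhb12, both lower in the knockout, which is 2 of 23 rows beside 3.81% of all genes tested. No member lay wholly above its wild types, beside 3.36% of all genes. The 8 markers of microglia and the 8 of meninges all had log2 fold changes below 0 in LC1, with medians of -0.24 and -0.20 and none called. The microglia markers summed to 135, 142 and 132 CPM in LC1 knockout brains, against 180, 150 and 141 CPM in LC1 wild types, and their part in the members' values was not tested.

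Among the 38 member transcripts tested, edgeR called none, as it called 0% of 47772 transcripts, and none had an unadjusted p under 0.05. Here 16 of 38 were higher in the knockout, with a median log2 fold change of -0.05. Without the wild type 26 it was 22 of 38 with a median of 0.03, and without embryo 7 it was 18 of 38 with a median of -0.01. Pcdhb15 (0.40 ± 0.21, SE), Pcdhga12 (0.12 ± 0.07) and Pcdhb9 (-0.21 ± 0.13) had the smallest p. Of the C-type isoforms, Pcdhac1 had a log2 fold change of 0.20 (95% interval -0.10 to 0.50), Pcdhac2 of -0.01 (-0.25 to 0.23), Pcdhgc3 of 0.09 (-0.08 to 0.26), Pcdhgc4 of 0.01 (-0.21 to 0.24) and Pcdhgc5 of -0.12 (-0.37 to 0.13).

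In the RKI experiment most members were slightly higher in the homozygous brains, none past the threshold. The alpha row had 174, 151 and 166 CPM in RKI homozygous brains, against 160, 173 and 131 CPM in RKI wild types, a log2 fold change of 0.08 (95% interval -0.12 to 0.29). The beta rows summed to 160, 159 and 163 CPM in RKI homozygous brains, against 146, 169 and 131 CPM in RKI wild types. The gamma row had 747, 701 and 794 CPM in RKI homozygous brains, against 738, 773 and 681 CPM in RKI wild types, a log2 fold change of 0.03 (-0.12 to 0.18). The groups overlapped in each cluster, and the lowest of the 6 values was that of A16.

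No member row was called in RKI by edgeR, and none had an unadjusted p under 0.05. The test called 0% of all genes, with 307 at an unadjusted p under 0.05, and neither DESeq2 nor limma-voom called a gene. Of the 23 rows, 19 were higher and 4 lower in the homozygous brains, with a median log2 fold change of 0.13, against 0.00 over all genes. Without A16 this count was 16 of 23 and the median 0.03, and without A18 they were 15 of 23 and 0.07. Without A9 or without A10, the 2 females, 22 of 23 were higher, with a median of 0.22. Given the sex term, both settings compare the same males, A1 and A18 against A2 and A16, so they are not 2 separate checks. Over the same libraries, 12 of 12 markers of postmitotic neurons were higher (median log2 fold change 0.07) and 10 of 10 proliferation genes lower (median -0.15), none called. The neuron markers summed to 9220, 9061 and 9537 CPM in RKI homozygous brains, against 8824, 9539 and 8159 CPM in RKI wild types, and the proliferation genes to 1006, 1067 and 1047 CPM, against 1081, 946 and 1465 CPM. Of 8 markers of serotonergic neurons, 6 passed the filter: Gata2, Gata3, Ddc, Slc6a4, Slc18a2 and Htr1a. Fev, at 0 in every library, and Tph2 did not pass. Whether the 6 mark serotonergic neurons in these brains was not tested. All 8 summed to 51.9, 48.4 and 48.1 CPM in RKI homozygous brains, against 36.7, 42.2 and 34.9 CPM in RKI wild types, and 5 of the 6 tested were higher (median log2 fold change 0.33, none called). In LC1 wild types the 8 summed to 46.2, 48.4 and 53.6 CPM. The RKI wild types thus lay below both the RKI homozygous and the LC1 wild-type brains. The part of these markers in the members' direction was not tested.

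Pcdhb7 had 14, 12.5 and 14.8 CPM in RKI homozygous brains, against 11.4, 13.3 and 10.9 CPM in RKI wild types, a log2 fold change of 0.21 ± 0.11 (SE; edgeR adjusted p = 1, unadjusted 0.0590). Pcdhb4 had 8.28, 5.95 and 6.26 CPM in RKI homozygous brains, against 5.6, 5.64 and 5.59 CPM in RKI wild types (log2 fold change 0.28 ± 0.14). Pcdhb4 was the one member whose groups did not overlap, beside 2.59% of all genes that lay wholly higher, while 0 of 23 lay wholly lower, beside 3.07%. Pcdhb18 had 9.53, 8.60 and 9.16 CPM in RKI homozygous brains, against 8.80, 7.86 and 6.53 CPM in RKI wild types (log2 fold change 0.23 ± 0.12), and its groups overlapped.

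Of the 38 transcripts, 30 were higher in the RKI homozygous brains, among them all 8 alpha isoforms, 17 of 21 beta and 5 of 9 gamma transcripts, with a median log2 fold change of 0.11. Without A16 it was 24 of 38 and 0.04. Without A9 or A10, which again compares the same males, it was 36 of 38 and 0.24. No transcript was called by edgeR, against 0% of all transcripts, and none had an unadjusted p under 0.05. Pcdhb7 (0.24 ± 0.12, SE), Pcdha9 (0.19 ± 0.12) and Pcdha12 (0.20 ± 0.13) had the smallest p. The C-type log2 fold changes were 0.09 (95% interval -0.21 to 0.39) for Pcdhac1, 0.08 (-0.16 to 0.32) for Pcdhac2, -0.01 (-0.18 to 0.16) for Pcdhgc3, 0.08 (-0.14 to 0.31) for Pcdhgc4 and -0.01 (-0.26 to 0.23) for Pcdhgc5.

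**Figure D3:**
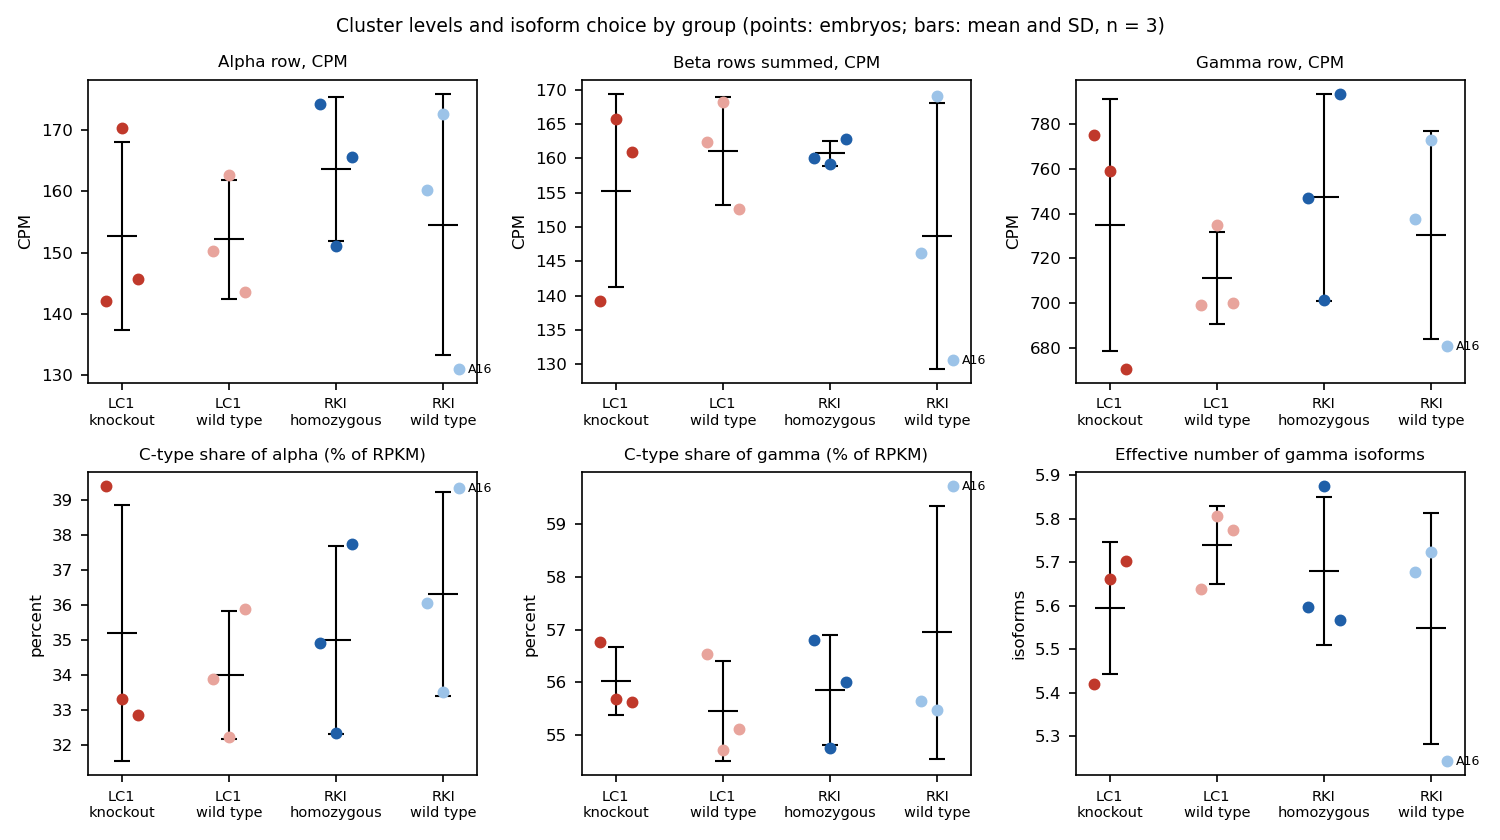
Level of each cluster from the gene table (CPM) and isoform choice from the transcript table, for 3 embryos in each group with mean and SD; the vertical axes do not start at 0. Embryo A16 is the lowest of the 12 in the alpha row and the beta sum and has the highest gamma C-type share (59.7%), and in every panel each mutant group overlaps its wild types.

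**Figure D4:**
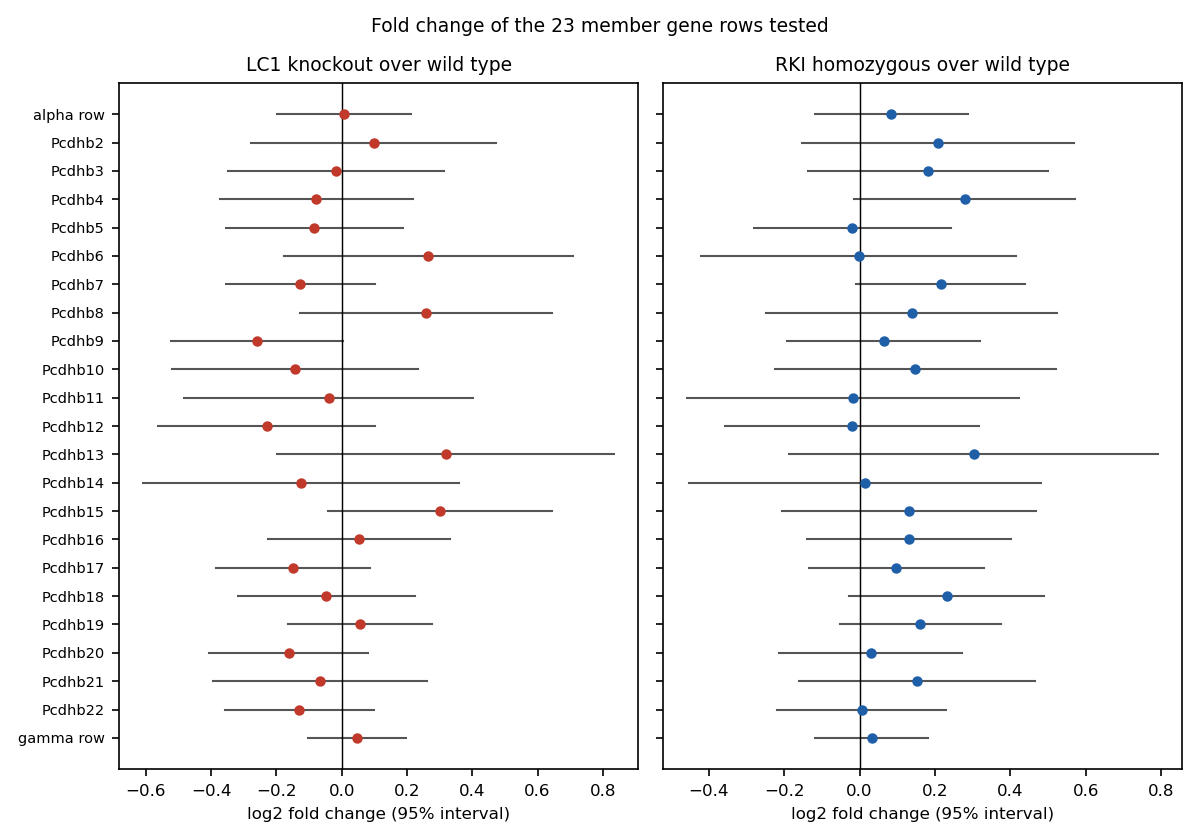
Log2 fold change with its 95% interval for the 23 member gene rows tested, LC1 knockout over wild type on the left and RKI homozygous over wild type on the right. Every interval includes 0, with 9 of 23 points above 0 on the left and 19 of 23 on the right.

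The effects of the 2 alleles on the members were also compared. The LC1 effect was estimated in females only and the RKI effect in both sexes of another experiment. A difference between alleles therefore cannot be told apart from a response that differs by sex, line or experiment. The difference between the RKI and the LC1 effect was called for 0 of 23 rows by edgeR, against 0% of all genes, and DESeq2 and limma-voom called none. Pcdhb7 alone had an unadjusted p under 0.05 (difference 0.34 ± 0.15 on the log2 scale, unadjusted p = 0.0373, adjusted p = 1). Pcdhb9 (0.32 ± 0.17) and Pcdhb4 (0.36 ± 0.20) followed. Of the 23 rows, 18 had a difference above 0 (median 0.14), and 14 with a median of 0.06 without A16. For the alpha row the difference was 0.08 (95% interval -0.21 to 0.37), and for the gamma row -0.01 (-0.23 to 0.20).

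RKI wild types were also set against LC1 wild types. Line, litter and any batch between the experiments cannot be told apart in this comparison. It rests on the sex term, since the LC1 embryos were all female and A9 was the only female RKI wild type. Of the 23 rows, 13 were higher in RKI wild types (median log2 fold change 0.04), but 3 of 23 without A9 (median -0.17) and 5 of 23 with no sex term (median -0.06). None of the 23 rows was called by edgeR, DESeq2 or limma-voom, against 0.0125% of all genes by edgeR. Pcdhb4 had 5.6, 5.64 and 5.59 CPM in RKI wild types, against 6.05, 7.86 and 7.36 CPM in LC1 wild types, a log2 fold change of -0.43 ± 0.17 (unadjusted p = 0.0245, adjusted p = 1 by edgeR), the one unadjusted p under 0.05. Pcdhb6 (0.47 ± 0.25) and Pcdhb7 (-0.24 ± 0.13) had the next smallest p. The groups did not overlap for Pcdhb6, higher in RKI wild types, or for Pcdhb4 and Pcdhb12, both lower there, beside 3.36% and 4.23% of all genes in those directions. Pcdhb4 in RKI wild types was below both the RKI homozygous and the LC1 wild-type brains. Among transcripts none was called, against 0.00209% of all, and Pcdhga9 (-0.31 ± 0.14), Pcdhb4 (-0.48 ± 0.22) and Pcdhb7 (-0.28 ± 0.15) had the smallest p. In usage, where 0.222% of all transcripts were called, Pcdhga9 (-0.33), Pcdhga12 (0.13) and Pcdha1 (0.30) had the smallest p, and no member was called.

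Sex was estimated from the RKI embryos, 4 males and 2 females. No member was called by edgeR, DESeq2 or limma-voom, against 0.05% of all genes by edgeR. In edgeR's test 2 of 23 had an unadjusted p under 0.05, as did 5.18% of all genes. Of the 23 rows, 20 were lower in males, with a median log2 difference of -0.13. Of all 16002 genes tested, 8056 were lower in males. Pcdhb22 had 10.4, 10.7, 10.1 and 9.10 CPM in the males (A1, A18, A2 and A16), against 11.4 and 13.5 CPM in the females (A10 and A9), a difference of -0.30 ± 0.11 (unadjusted p = 0.0140, adjusted p = 0.890). Pcdhb11 (-0.51 ± 0.22) and Pcdhb6 (-0.41 ± 0.21) had the next smallest p. Among the 38 transcripts none was called either, against 0.00628% of all, and 30 were lower in males. Pcdha12 (-0.37 ± 0.14, SE) and Pcdhb22 (-0.35 ± 0.15) had an unadjusted p under 0.05 there by edgeR, as did 4.41% of all transcripts tested. The 10 proliferation genes were all higher in males (median 0.15), none called, and their part was not tested. The direction of the gene rows depended on A9: without A9 the median was 0.03, with 16 of 23 rows higher in males. The sex term then rested on the RKI homozygous embryos alone, A10 against A1 and A18. Without A16 the direction stayed, with a median of -0.08 and 7 of 23 rows higher in males.

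At the median, the spread of the member gene rows between embryos lay near the trend for genes at their level. The biological coefficient of variation ran from 6.46% for the gamma row to 16%, with a median of 9.26% over the 23 rows, and its ratio to the trend at that level had a median of 1.02, against 0.93 over all genes tested. The alpha row varied more than the trend (8.34% against 6.12%). Single rows ran from a ratio of 0.69 for Pcdhb9 to 1.45 for Pcdhb14. For the 38 member transcripts tested the median ratio was 0.50, against 0.66 over all transcripts tested.

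Genes that act with the clustered protocadherins or lie beside them were read from 4 lists. Of 25 regulators of their promoters, among them CTCF, cohesin subunits, Smchd1 and DNA methyltransferases, none was called in either experiment by edgeR. In LC1, 18 were higher (median log2 fold change 0.03), and Ctcf had 165, 161 and 157 CPM in LC1 knockout brains, against 146, 154 and 154 CPM in LC1 wild types (0.09 ± 0.05). Atf7ip, a partner of the histone methyltransferase SETDB1, had the next smallest p there (0.13 ± 0.08). In RKI, 7 were higher (median -0.02). Dnmt3b, a de novo methyltransferase that methylates clustered protocadherin promoters in mouse embryos, had 5.33, 6.88 and 5.19 CPM in RKI homozygous brains, against 6.46, 6.77 and 7.21 CPM in RKI wild types (-0.24 ± 0.13).

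Of 23 cytoplasmic and membrane partners, none was called, with 18 higher in LC1 (median 0.03) and 12 in RKI (median 0.00). In LC1, Ncstn, a part of the gamma-secretase that cuts protocadherins within the membrane, had a log2 fold change of 0.11 ± 0.06. In RKI the smallest p was that of Ret, a receptor tyrosine kinase that binds clustered protocadherins, with 9.06, 8.16 and 7.78 CPM in RKI homozygous brains, against 6.97, 8.07 and 4.55 CPM in RKI wild types (0.36 ± 0.15, unadjusted p = 0.0263, edgeR adjusted p = 1), followed by Cyfip1 (-0.10 ± 0.06). A16 was the lowest for Ret.

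Of 12 non-clustered protocadherins, which lie outside the clusters, none was called. In LC1, 5 were higher (median -0.01), with Pcdh18 (-0.12 ± 0.07) and Pcdh20 (-0.16 ± 0.12) at the smallest p. In RKI, 9 were higher (median 0.05), and Pcdh11x had 46.6, 39.8 and 45.8 CPM in RKI homozygous brains, against 39.0, 42.8 and 33.3 CPM in RKI wild types (0.20 ± 0.09, unadjusted p = 0.0392, edgeR adjusted p = 1). Pcdh8 had a log2 fold change of 0.12 ± 0.09, and -0.01 without A16. The 12 together summed to 883 CPM in A16, against 936 to 1048 CPM in the other 11.

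Of 17 genes beside the clusters on chromosome 18, none was called, with 9 higher in LC1 (median 0.00) and 6 in RKI (median -0.02). Taf7, a subunit of the general transcription factor TFIID whose gene lies between the beta and gamma clusters, had 23.8, 22.7 and 24.2 CPM in LC1 knockout brains, against 28.9, 24.6 and 26.2 CPM in LC1 wild types (-0.18 ± 0.08, unadjusted p = 0.0462, edgeR adjusted p = 1). Zmat2 followed with -0.13 ± 0.07. In RKI, Cd14 (0.53 ± 0.40) and Arap3 (-0.09 ± 0.09) had the smallest p.

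The authors' deposited tables of their own comparisons called no member either. In the authors' deposited table of genes for LC1, 0 of 24 member rows had an unadjusted p under 0.05, and the smallest was 0.0703. In the authors' deposited table of genes for RKI, whose sign was turned to homozygous over wild type, it was 0 of 24 with a smallest p of 0.0828, and 18 of 24 rows were higher in the homozygous brains. In the authors' deposited tables of transcripts, 16 of 38 member transcripts were higher in LC1 knockout and 30 of 39 in RKI homozygous brains, and none had an unadjusted p under 0.05.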

How the data were processed

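Oligo-dT libraries of 12 embryonic brains were analysed from the deposited tables. The authors deposited counts per gene, RPKM per gene and per transcript, and estimated counts per transcript, and, per the submitters' processing notes, used limma, edgeR, Subread with featureCounts 1.4.5, and STAR 2.0.4b. Genome build, annotation release, strand setting and transcript estimator: not given in the sources used here. Comparison tables of log2 fold changes with p-values were also deposited by the authors, the RKI ones as wild type minus homozygous.

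One row per identifier was kept (repeated rows were identical). Counts were tested with edgeR 4.0.16 in R 4.3.3 (quasi-likelihood, TMM scaling, filterByExpr, robust, 4 group means and a sex term, 7 residual degrees of freedom), with Benjamini-Hochberg adjustment at 0.05 over all features tested. Estimated counts were rounded first, and their uncertainty was not modelled. CPM use TMM-adjusted totals. Usage was tested with diffSpliceDGE, on a fit of the same design without the robust option. Since each member gene has 1 listed transcript, the alpha and the gamma transcripts were each taken as 1 gene, a choice made after seeing the tables. Scripts were tested on simulated data. Alternatives were RLE scaling, no filter, DESeq2 1.42.0, limma-voom (limma 3.58.1), 6 libraries only, no sex term, summed transcript estimates, and leaving out each library.

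Members and gene lists were chosen with earlier results of these data known. Named are the C-type isoforms, the 3 highest and 3 lowest of each cluster, the 3 smallest p per comparison and the 2 smallest p per gene list, and others only where said. Some genes under this rule are not reported here. Counting error limits the low beta genes, and the low isoforms of the transcript table.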

Additional observations from a re-analysis of the deposited data

How the results depend on the processing

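No clustered protocadherin passed the threshold under any of 19 alternative settings, 12 of which leave out 1 library each. For transcripts and usage, the settings run were those 12 and the one with no filter on low counts. Under leaving out each library in turn, the median log2 fold change of the 23 gene rows ran from -0.11 to 0.06 in LC1. In RKI it ran from 0.03 (without A16) to 0.22 (without A9 or A10, both a comparison of the same males). It ran from 0.06 to 0.24 for the difference between these effects. For RKI wild type against LC1 wild type it ran from -0.17 (without A9) to 0.13. For male against female it ran from -0.26 (without A10) to 0.029 (without A9). Without single libraries, log2 fold changes changed sign for Pcdhac2 (from -0.067 to 0.064) and Pcdhgc4 (from -0.037 to 0.053) in LC1, for Pcdhgc3 (from -0.063 to 0.077), Pcdhgc4 (from -0.024 to 0.22), Pcdhgc5 (from -0.059 to 0.027) and Pcdh8 (from -0.0081 to 0.29) in RKI, and for the usage of Pcdha1 (from -0.20 to 0.57) between the wild types. The cause was not tested. No paired analysis was possible because the litters by which embryos were matched are not named in the labels, and the groups share no replicate numbers. With 3 embryos per group, the standard error of 0.14 at the median gene row limits what could be detected, and the low beta genes rest on few counts (32 to 76 for Pcdhb13).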
